A study of Mus musculus with 4 samples.

Results

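The 43 genes examined here encode the enzymes and transporters that build glycosaminoglycans, the long sugar chains carried by proteoglycans, and those that sulfate them or supply the sulfate and sugar precursors. They were chosen by name from the deposited table of 55228 genes, and all 43 were in it and had enough counts to be tested. By role they are 6 genes of the linker that joins a chain to its core protein, 6 of chondroitin chain synthesis, 7 of chondroitin sulfation, 3 of dermatan formation, 5 of heparan chain synthesis, 8 of heparan modification, 5 of sulfate and precursor supply, and the 3 hyaluronan synthases. The RNA was that of cells from rib cartilage of embryos at stage E17.5, all of the C57BL/6 strain, with 2 libraries of the wild-type genotype (WT) and 2 of the Trim28 knockout (Trim28 KO). The labels do not say how the knockout was made, in which cells it acts, or whether libraries of 1 genotype are of different embryos. The p-values therefore rest on the spread between these samples alone, which may be technical. Zinc finger proteins recruit TRIM28, a corepressor, to DNA, where repeats and genes are silenced.

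Chains of the chondroitin and heparan types start on a serine of the core protein, where a xylosyltransferase adds xylose and further enzymes complete a short linker. A following N-acetylgalactosamine commits the chain to chondroitin, and N-acetylglucosamine commits it to heparan. Polymerases then extend the chain from UDP-sugars, and sulfotransferases decorate it with sulfate from the donor PAPS. In cartilage, chondroitin sulfate on aggrecan holds the water that gives the tissue its stiffness, and heparan sulfate on cell surface and basement membrane proteoglycans binds growth factors such as those of the FGF, Hedgehog and Wnt families. Hyaluronan is made without a core protein or sulfate by synthases in the plasma membrane.

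The libraries held 18616896 to 20082123 counted fragments. Levels are given as CPM, counts brought to a common library size with trimmed mean of M-values (TMM) factors, and levels of different genes are compared as CPM per kilobase of exon. Trim28 stood at 225 and 186 CPM in WT and at 51.1 and 54.5 CPM in Trim28 KO, a fall of 3.89-fold that matched the labels of all 4 libraries. All 11 chondrocyte markers were expressed in every library, with Col2a1 at 5.64% to 7.47% of all counts, which matches the tissue label, and none of them passed the test between genotypes. Markers of other cells did differ. The summed level of 9 macrophage markers was 133 to 136 CPM in WT and 261 to 437 CPM in Trim28 KO, with 6 higher, and all 9 were detected. The summed level of 8 osteoclast markers was 920.3 to 1073 CPM in WT and 242 to 249 CPM in Trim28 KO, with all 7 tested markers lower, and that of 7 red cell markers was 255 to 349 and 75.5 to 81.7 CPM, with all 6 tested lower. Osteoblast markers summed to 21528 to 37874 CPM in WT and 8359 to 12107 CPM in Trim28 KO (6 of 7 lower), hypertrophic chondrocyte markers to 6614 to 7384 and 2640 to 3413 CPM (6 of 6 lower), and perichondrium and fibroblast markers to 26914 to 31918 and 13868 to 17705 CPM (5 of 8 lower). Schwann cell markers summed to 23.5 to 37.7 and 11.5 to 14.4 CPM (3 of 4 lower). Skeletal muscle markers varied within genotypes, from 623 to 821 CPM in WT and from 460 to 1189 CPM in Trim28 KO, highest in Trim28 KO 1 (1 of 8 tested higher, 1 lower), and none of 7 endothelial markers passed the test (432 to 511 and 368 to 420 CPM). The part of these shifts in the results on glycosaminoglycan genes was not tested.

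The chain-starting Xylt1, the chondroitin polymerase genes Chsy3, Chpf and Chpf2 and the heparan sulfatases Sulf1 and Sulf2 were higher in Trim28 KO, and Ugdh and Slc35d1, which make and carry UDP-glucuronate, were lower. Of the 43 genes, 9 were higher and 6 lower in Trim28 KO at an adjusted p under 0.05, and 28 did not pass the test (edgeR's quasi-likelihood test, Benjamini-Hochberg adjustment over 16639 genes). The 15 make up 34.9% of the 43, where 17.4% of all genes tested passed. By direction, 20.9% were higher, against 8.64% of all genes, and 14.0% lower, against 8.77%. Changes of at least 2-fold that passed the test were found for 4 of the 43 (9.30%), against 9.41% of all genes, so the larger share among the 43 lay in changes of less than 2-fold. The median log2 fold change was 0.10 over the 43 and -0.02 over all genes. The genotypes did not overlap in 27 of the 43 (62.8%), near the 58.0% of all genes. Together the 43 genes took 0.317% and 0.352% of counts in WT 1 and WT 2, and 0.435% and 0.487% in Trim28 KO 1 and Trim28 KO 2. In bulk RNA, fewer cells of a type and less RNA per cell cannot be told apart.

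Single libraries decided part of this count. Without Trim28 KO 1, 6 of the 43 were higher and 0 lower (14.0%, against 7.29% of all genes tested), while 18 had an unadjusted p under 0.05. Without WT 2, 6 were higher and 3 lower (20.9%, against 15.6%), and without Trim28 KO 2, 5 were higher and 5 lower (23.3%, against 9.78%). Only 5 of the 15, the risen genes Xylt1, Chst3, Sulf2, Chsy3 and Sulf1, passed under all 14 alternative settings. None of the 15 changed direction under any of these settings.

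**Figure D1:**
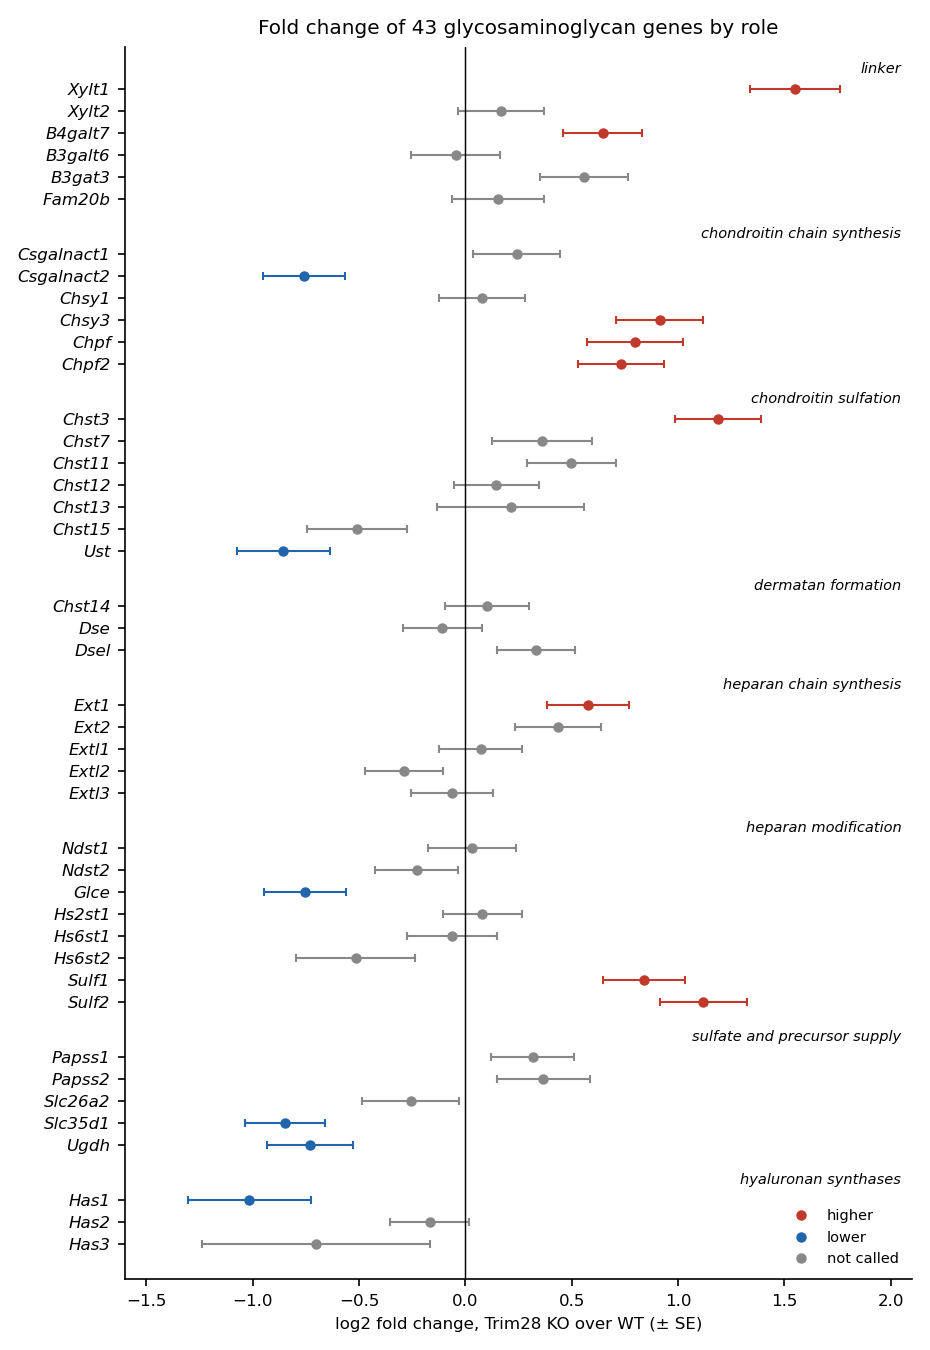
Log2 fold change of Trim28 KO over WT (horizontal axis, bars show ± SE from edgeR, n = 2 per genotype) for the 43 genes, grouped by role; red marks genes higher and blue genes lower at an adjusted p under 0.05, grey the rest. Xylt1 lies farthest to the right at 1.55, and the 6 lower genes lie between -0.73 and -1.02 and are spread over 5 of the 8 roles.

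Sequence upstream of the start is shown for 3 of the 15 genes as examples, Chpf and Chst3 among those that rose and Slc35d1 among those that fell. They were picked with their motif matches in view, and each stretch is free of annotated exons. B4galt7, which rose, held no GC box in the 250 bases before its start. The sequences are from RefSeq on GRCm38.p6, read 5′ to 3′ on the gene's strand and ending at the base before the start. Capitals mark a GC box (GGGCGG or its complement CCGCCC) or a cAMP response element (CRE, TGACGTCA), and no marked motif overlaps another. The Chpf stretch is chr1:75479472-75479531, minus strand, and is cut at 60 bases because exons of the divergent neighbour Tmem198 begin there.
Chpf: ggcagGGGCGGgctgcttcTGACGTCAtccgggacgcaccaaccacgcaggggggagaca
The Chst3 stretch is chr10:60219261-60219360, minus strand.
Chst3: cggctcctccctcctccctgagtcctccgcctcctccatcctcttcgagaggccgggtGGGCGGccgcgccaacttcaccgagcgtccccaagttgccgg
The Slc35d1 stretch is chr4:103215177-103215276, minus strand.
Slc35d1: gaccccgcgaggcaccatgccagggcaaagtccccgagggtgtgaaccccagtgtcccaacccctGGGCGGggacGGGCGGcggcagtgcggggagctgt

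A RefSeq start was listed for 33 of the 43 genes, and the 250 bases before each were searched on both strands. A GC box was found for 25 of the 33 genes: 3 of the 5 higher genes with a listed start, 5 of 6 lower genes and 17 of 22 others. Some genes have more than 1 listed start: counted by window, 26 of the 41 windows of these genes held it (63.4%), and 32.7% of 32851 windows of all genes. The CCAAT box (CCAAT), TATA box (TATAAA) and E-box (CACGTG) were searched too. They were found in 41.5%, 4.88% and 9.76% of the 41 windows, against 33.8%, 12.4% and 6.02% of the windows of all genes. Unlike the 43, which were all tested, the 32851 windows were not limited to genes tested here. The CRE, looked for after the letters of Chpf had been seen, was found in 1.55% of those windows, and Chpf was among only 10 windows that held it at least 2 times (the other match lies within an exon of Tmem198). Among the 33 genes Has1, which fell, also held 1 CRE. These matches describe letters only, and nothing measured here bears on binding.

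The linker was led by the rise of Xylt1. Xylt1 encodes a xylosyltransferase that starts chains, and its loss in mice brings early chondrocyte maturation and dwarfism. It stood at 158 and 182 CPM in WT and at 459 and 538 CPM in Trim28 KO. Both Trim28 KO libraries lay far above both WT libraries, a rise of 2.93-fold and the largest change among the 43 (log2 fold change 1.55 with an SE of 0.21 from 2 libraries a genotype; adjusted p = 1.11e-05, edgeR's quasi-likelihood test). Further fold changes are given as log2 ± SE from the same test. The gene spans positions 117380979 to 117673580 of chromosome 7, plus strand (GRCm38). Xylt2, its paralog, gave 46.1 and 35.8 CPM in WT and 38.3 and 53.5 CPM in Trim28 KO and did not pass the test (0.17 ± 0.20, adjusted p = 0.634). Per kilobase, Xylt1 made up 58.6% and 67.7% of the pair in WT and 83.2% and 80.6% in Trim28 KO.

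Later steps of the linker moved less. B4galt7, which adds the first galactose, stood at 49.3 and 49.5 CPM in WT and at 77.8 and 76.8 CPM in Trim28 KO, so the spread within each genotype was small beside the difference. It rose 1.56-fold (0.65 ± 0.19, adjusted p = 0.0172). The call was lost without Trim28 KO 1 (adjusted p = 0.106) or without Trim28 KO 2 (adjusted p = 0.0795), at log2 fold changes of 0.64 and 0.66. B3gat3, which adds the closing glucuronate, had the highest level per length of the linker genes in WT and in the mean of all 4 libraries, although Xylt1 was above it in both Trim28 KO libraries. It stood at 92.5 and 65.5 CPM in WT and at 122 and 111 CPM in Trim28 KO (0.56 ± 0.20, adjusted p = 0.0629). It was called under 6 of 14 alternative settings, with adjusted p from 0.00787 without WT 1 to 0.355 without WT 2. B3galt6, which adds the second galactose (-0.05 ± 0.21), and Fam20b, the kinase that phosphorylates the xylose (0.15 ± 0.22), did not pass the test. Fam20b varied more between WT 1 and WT 2 (124 and 179 CPM) than between the means of WT and Trim28 KO (152 and 169 CPM).

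The chondroitin polymerase genes rose apart from Chsy1, and Csgalnact2, a starter of the chain, fell. Chsy1, Chsy3, Chpf and Chpf2 encode the subunits that work in pairs to extend chondroitin. Chpf, the most abundant of these per length, stood at 230.4 and 146 CPM in WT and at 306 and 349 CPM in Trim28 KO. Its WT libraries differed from each other by more than the Trim28 KO libraries did, but neither reached the Trim28 KO values. It rose 1.74-fold (0.80 ± 0.22, adjusted p = 0.0157). Chpf2 went from 112 and 91.5 to 154 and 185 CPM, a 1.66-fold rise (0.73 ± 0.20, adjusted p = 0.0132). In the GENCODE annotation 44.1% of its exon bases are shared with Smarcd3 on the opposite strand, and reads that fall in both are counted for neither under the recorded options, which lowers its level per length. Chsy3 went from 66.2 and 47.3 to 104 and 110.2 CPM, a 1.88-fold rise (0.91 ± 0.20, adjusted p = 0.00266). Chsy1, at 115 and 106 CPM in WT and 99.8 and 134 CPM in Trim28 KO, did not pass the test (0.08 ± 0.20, adjusted p = 0.835).

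Both CSGALNACT enzymes add the first N-acetylgalactosamine of a chondroitin chain, and Csgalnact1 is the form known to be needed for normal cartilage growth in mice. Csgalnact2 stood at 56.0 and 70.7 CPM in WT and at 35.3 and 39.5 CPM in Trim28 KO and fell 1.69-fold (-0.76 ± 0.19, adjusted p = 0.00687). Csgalnact1 stood at 59.4 and 74.7 CPM in WT and at 67.4 and 91.1 CPM in Trim28 KO and did not pass the test (0.24 ± 0.20, adjusted p = 0.467). Within each library, Csgalnact1 made up 53.1% and 53.0% of the pair per kilobase in WT, and 67.1% and 71.1% in Trim28 KO. The share of Chsy3 in Chsy3 plus Chsy1 was 25.0% and 20.5% in WT, and 37.5% and 32.2% in Trim28 KO. Such ratios of 2 against 2 libraries cannot reach an exact two-sided permutation p below 0.333, so they are given as values. The call of Chpf was lost without WT 2 (adjusted p = 0.174) and likewise without Trim28 KO 1 (0.0660) or Trim28 KO 2 (0.135), that of Chpf2 when leaving out WT 2 (0.0686) or Trim28 KO 2 (0.136), and that of Csgalnact2 without WT 2 (0.0646) or Trim28 KO 1 (0.128).

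Of the 7 chondroitin sulfation genes Chst3 rose, Ust fell, and 5, with the most abundant, Chst11, among them, did not pass the test. Chst3 encodes the chondroitin 6-O-sulfotransferase whose loss in humans causes a skeletal dysplasia. It stood at 12.9 and 11.0 CPM in WT and at 24.8 and 29.6 CPM in Trim28 KO, and all Trim28 KO values were above all WT values. It rose 2.28-fold (1.19 ± 0.20, adjusted p = 1.74e-04) and lies on chromosome 10 from 60181532 to 60219260 on the minus strand. Chst11, the 4-O-sulfotransferase that mouse growth cartilage depends on, had the highest level per length of the group, at 47.2 and 43.7 CPM per kilobase in WT and 55.2 and 73.2 in Trim28 KO, against 1.98, 1.69, 3.81 and 4.55 for Chst3. Its log2 fold change of 0.50 ± 0.21 did not pass the test (adjusted p = 0.107). Chst3 thus remained at 3.73% to 4.02% of the pair Chst3 plus Chst11 per kilobase in WT and 5.85% to 6.46% in Trim28 KO.

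Ust, which adds sulfate to the 2-O position of uronic acids in chondroitin and dermatan, was the member of this group that fell. It stood at 30.9 and 23.6 CPM in WT and at 12.0 and 18.1 CPM in Trim28 KO, a 1.81-fold fall (-0.86 ± 0.22, adjusted p = 0.00884). The call was lost without WT 1 (adjusted p = 0.0566) or Trim28 KO 1 (adjusted p = 0.213), where the log2 fold changes were -0.63 and -0.58. The remaining sulfotransferases did not pass the test. They were Chst7, a further 6-O enzyme (0.36 ± 0.23), Chst12 and Chst13, further 4-O enzymes (0.14 ± 0.20 and 0.21 ± 0.34), and Chst15, which adds a second sulfate to 4-sulfated units (-0.51 ± 0.24, adjusted p = 0.157). Chst13 was barely expressed, at 1.97 to 2.86 CPM. Chst15 shares 17.9% of its exon bases with the antisense gene Gm10584, and since strand was not used reads there were not assigned.

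**Figure D2:**
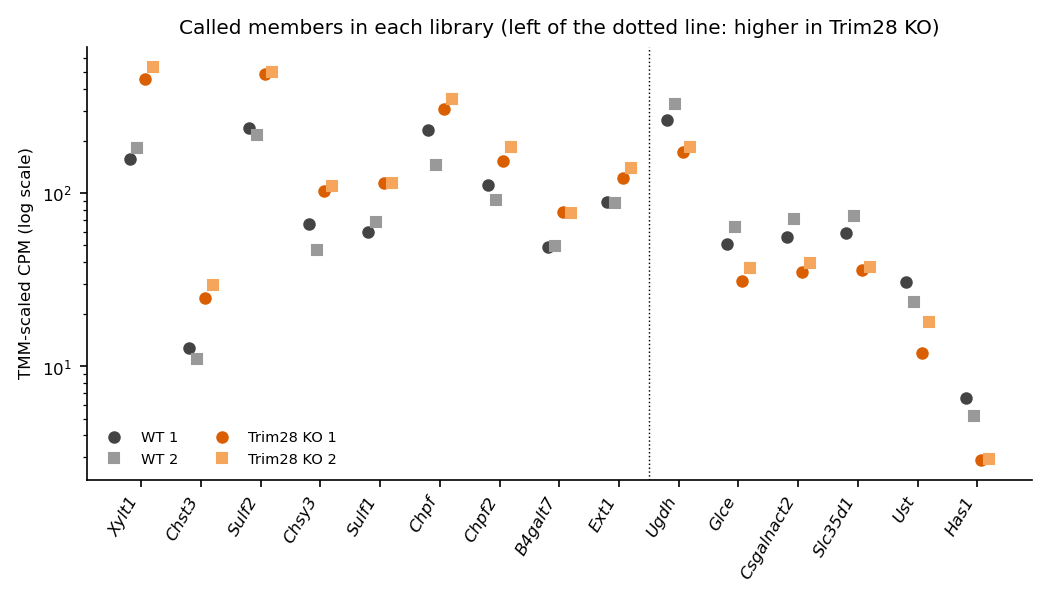
TMM-scaled CPM (log axis) of the 15 genes that passed the test, in each of the 4 libraries; circles are replicate 1 and squares replicate 2, grey for WT and orange for Trim28 KO. To the left of the dotted line both orange points lie above both grey points for 9 genes, from Xylt1 to Ext1, and to the right both lie below for 6 genes, with Ugdh at 265 and 327 CPM in WT and 172 and 185 in Trim28 KO.

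None of the 3 dermatan genes passed the test. Dse and Dsel encode the epimerases that turn glucuronate of chondroitin into iduronate. Dse, the higher per length, stood at 67.9 and 71.4 CPM in WT and at 61.4 and 67.9 CPM in Trim28 KO (-0.11 ± 0.19, adjusted p = 0.751). Dsel stood at 48.0 and 44.5 CPM in WT and at 55.6 and 60.8 CPM in Trim28 KO (0.33 ± 0.18, adjusted p = 0.234). The genotypes did not overlap in either gene, as was also so for 58.0% of all genes tested. Chst14, the dermatan 4-O-sulfotransferase, overlapped between genotypes (0.10 ± 0.20, adjusted p = 0.779).

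Of the 5 heparan chain genes, Ext1 alone passed the test (20%, near the 17.4% of all genes tested). EXT1 and EXT2 form the heparan polymerase, and mutations in either cause multiple cartilage-capped exostoses in humans. Ext1 stood at 89.1 and 87.8 CPM in WT and at 123 and 140.5 CPM in Trim28 KO and rose 1.49-fold (0.58 ± 0.19, adjusted p = 0.0419). Ext2, the higher of the pair per length, stood at 162 and 187 CPM in WT and at 218 and 254 CPM in Trim28 KO (0.44 ± 0.20, adjusted p = 0.146). Both Trim28 KO libraries exceeded both WT libraries in each gene, and Ext1 was 29.9% to 33.3% of the pair per kilobase in WT and 33.4% to 33.9% in Trim28 KO. The Ext1 call was the least stable of the 15, lost without any of the 4 libraries (adjusted p = 0.0772 to 0.219) and with upper-quartile factors (adjusted p = 0.0513). The exostosin-like genes, which encode relatives of these polymerases, Extl1 (0.07 ± 0.20), Extl2 (-0.29 ± 0.18) and Extl3 (-0.06 ± 0.19), did not pass the test.

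Among the heparan modifiers both extracellular sulfatases rose, and the epimerase Glce fell. SULF1 and SULF2 remove 6-O-sulfate from heparan chains outside the cell and so change how these bind growth factors. Sulf2 stood at 237 and 217 CPM in WT and at 487 and 499 CPM in Trim28 KO. The libraries of each genotype lay close together and well apart from the other genotype, a 2.17-fold rise (1.12 ± 0.21, adjusted p = 3.93e-04). Sulf1 stood at 59.4 and 68.3 CPM in WT and at 115 and 114 CPM in Trim28 KO, a 1.79-fold rise (0.84 ± 0.19, adjusted p = 0.00338). Per kilobase Sulf2 was the main form, with Sulf1 at 11.5% and 14.1% of the pair in WT and 10.9% and 10.6% in Trim28 KO. Sulf2 lies on chromosome 2 from 166073089 to 166155663 (minus strand) and Sulf1 on chromosome 1 from 12692277 to 12861192 (plus strand).

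Glce, which converts glucuronate of heparan to iduronate, stood at 51.2 and 63.6 CPM in WT and at 31.0 and 37.1 CPM in Trim28 KO. It fell 1.69-fold (-0.75 ± 0.19, adjusted p = 0.00759), a call lost without WT 2 (adjusted p = 0.0587) or Trim28 KO 1 (adjusted p = 0.155). The sulfotransferases of heparan did not pass the test. Ndst1 and Ndst2, which replace acetyl groups with sulfate, gave 0.03 ± 0.21 and -0.23 ± 0.20, Hs2st1, the 2-O enzyme, 0.08 ± 0.19, and Hs6st1 and Hs6st2, which place the 6-O-sulfate that the sulfatases remove, -0.06 ± 0.21 and -0.52 ± 0.28. Hs6st1 varied more within WT (36.2 and 22.7 CPM) than between genotypes, and Hs6st2 was low in all libraries (3.36 to 5.79 CPM).

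Both listed genes of UDP-glucuronate supply fell, while the sulfate genes did not pass the test. Ugdh encodes the dehydrogenase that makes UDP-glucuronate, a building block of chondroitin, heparan and hyaluronan. It stood at 265 and 327 CPM in WT and at 172 and 185 CPM in Trim28 KO and fell 1.66-fold (-0.73 ± 0.20, adjusted p = 0.0145). Slc35d1 encodes the transporter that carries UDP-glucuronate and UDP-N-acetylgalactosamine into the lumen, and its loss in mice and humans causes a severe chondrodysplasia. It stood at 59.1 and 73.6 CPM in WT and at 36.0 and 37.7 CPM in Trim28 KO and fell 1.80-fold (-0.85 ± 0.19, adjusted p = 0.00260). In both genes WT 2 was the highest library and the Trim28 KO libraries were close together. The Ugdh call was lost without WT 2 (adjusted p = 0.118), without Trim28 KO 1 (0.137) or Trim28 KO 2 (0.0684), and that of Slc35d1 without Trim28 KO 1 (0.0647). Ugdh lies on chromosome 5 from 65413221 to 65435949 and Slc35d1 on chromosome 4 from 103170649 to 103215164, both on the minus strand.

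Papss2 and Papss1 make the sulfate donor PAPS, and Papss2, the form mutated in brachymorphic mice, was the most abundant of all 43 genes per length, at 61.9 and 85.4 CPM per kilobase in WT and 83.7 and 106 in Trim28 KO. The WT and Trim28 KO ranges overlapped, and the log2 fold change of 0.37 ± 0.22 did not pass the test (adjusted p = 0.272). Papss1 gave 0.32 ± 0.19 (adjusted p = 0.292). Slc26a2, the sulfate importer mutated in diastrophic dysplasia, stood at 90.5 and 136 CPM in WT and at 78.3 and 111 CPM in Trim28 KO, a spread within each genotype that exceeded the difference between them (-0.26 ± 0.23, adjusted p = 0.491). Without WT 2 its log2 fold change was 0.09.

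Of the hyaluronan synthases, Has1 fell, and Has1 and Has3 were among the 3 genes with the lowest levels per length of all 43. Has2, the main synthase of the developing skeleton, stood at 36.0 and 39.0 CPM in WT and at 35.0 and 31.8 CPM in Trim28 KO and did not pass the test (-0.17 ± 0.18, adjusted p = 0.587). Has1 stood at 6.58 and 5.15 CPM in WT and at 2.88 and 2.91 CPM in Trim28 KO, from 124, 102, 56 and 58 counted fragments. It fell 2.02-fold (-1.02 ± 0.29, adjusted p = 0.0163), but was not called by DESeq2 (adjusted p = 0.0514) or without WT 1 (0.146), Trim28 KO 1 (0.106) or Trim28 KO 2 (0.0905). Has3 rested on 9 to 20 fragments per library and did not pass the test (-0.70 ± 0.54). Per kilobase Has2 was 85.3% and 89.0% of the sum with Has1 in WT, and 92.8% and 92.1% in Trim28 KO.

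**Figure D3:**
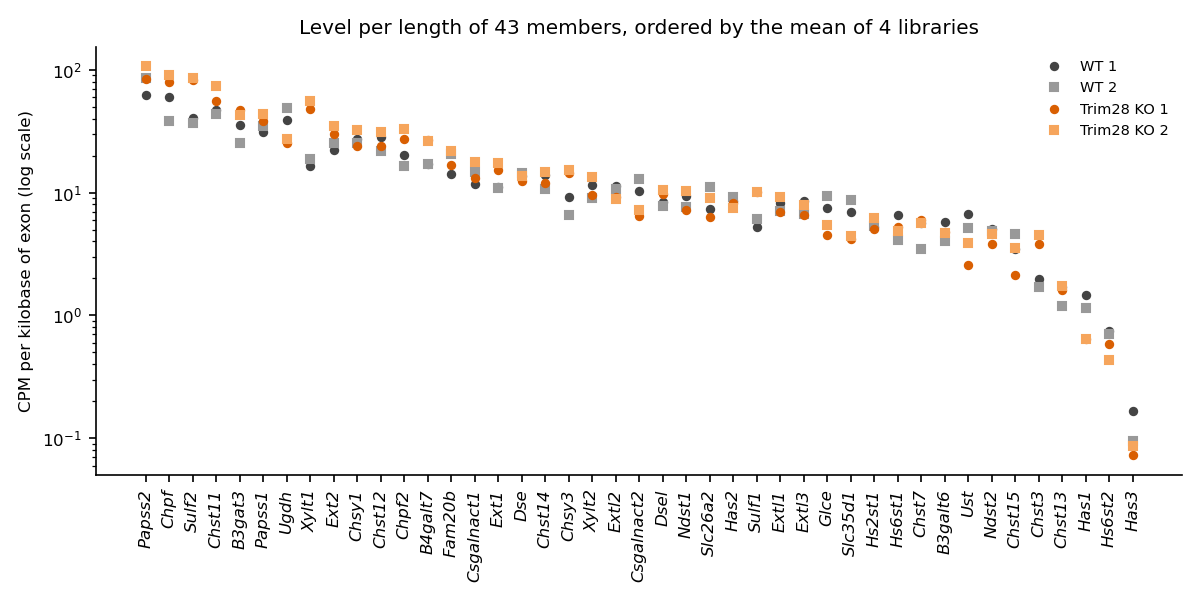
CPM per kilobase of exon (log axis) of the 43 genes in each library, ordered by the mean of all 4 from Papss2 at 84.3 to Has3 at 0.105; grey marks WT and orange Trim28 KO. Of the 13 genes whose mean reached 20 CPM per kilobase, 5 were higher, 1 lower and 7 did not pass the test.

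**Figure D4:**
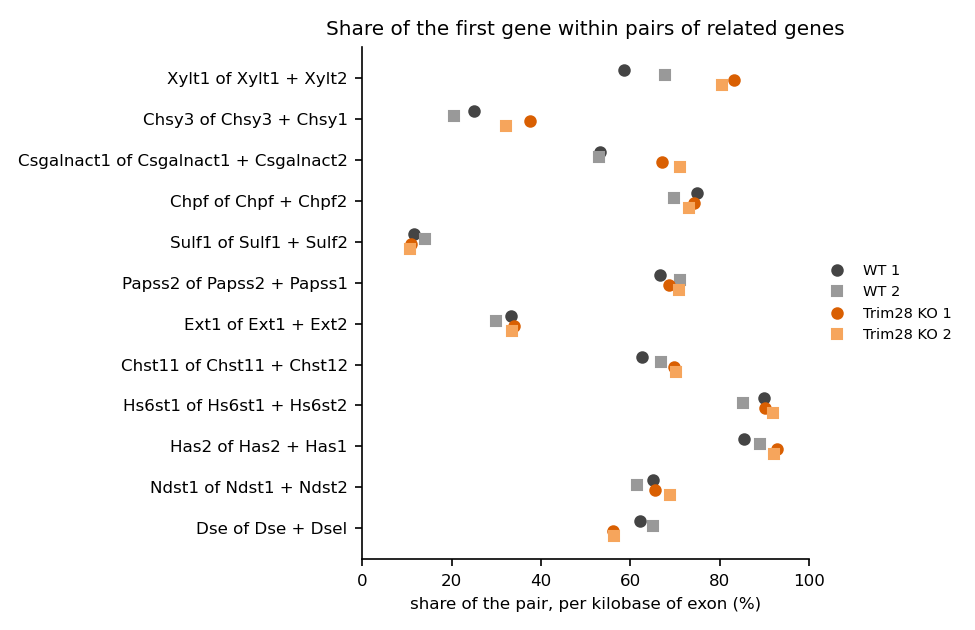
Share of the first gene in pairs of related genes, per kilobase of exon (horizontal axis, %), in each library, grey for WT and orange for Trim28 KO. The shares of Xylt1, Chsy3 and Csgalnact1 lie to the right of WT in both Trim28 KO libraries (Xylt1 58.6% and 67.7% in WT, 83.2% and 80.6% in Trim28 KO). Those of Ext1, Chst11, Hs6st1, Has2 and Ndst1 also do, Ext1 by little, and those of Sulf1 and Dse lie to the left. Only Chpf with Chpf2 and Papss2 with Papss1 overlap. Among single genes tested, 58.0% did not overlap between genotypes, and the share for gene pairs at large was not computed. Among the pairs without overlap, neither gene passed the test in those of Chst11 with Chst12, Hs6st1 with Hs6st2, Ndst1 with Ndst2 and Dse with Dsel.

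Other genes of the pathway outside the 43 were listed by role, 80 in all, of which 70 could be tested. Of these, 14 were higher and 8 lower (31.4%, against 17.4% of all genes tested). Of 17 genes of nucleotide sugar and PAPS handling, 2 rose and none fell (11.8% called, below the 17.4% of all genes tested). They were Ugp2, which makes the UDP-glucose that UGDH oxidises (69.9 and 79.2 CPM in WT against 270.4 and 180.3 in Trim28 KO, 3.02-fold, adjusted p = 1.29e-05), and Uap1l1, a paralog of the UDP-N-acetylglucosamine pyrophosphorylase Uap1 (29.6 and 27.7 CPM in WT against 139 and 116 in Trim28 KO, 2.15 ± 0.20, adjusted p = 4.78e-08). Ugp2 and Ugdh, consecutive steps to UDP-glucuronate, thus moved in opposite directions. The Golgi PAPS transporters Slc35b2 (-0.17 ± 0.20) and Slc35b3 (-0.22 ± 0.20) and the xylose-forming Uxs1 (0.02 ± 0.18) did not pass the test. The last 3 were picked for naming with their values in view.

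Among 6 further heparan enzymes tested, Hs3st6, a 3-O-sulfotransferase, was the only gene called (16.7%, near the 17.4% of all genes tested). It fell from 9.93 and 3.74 to 0.978 and 1.20 CPM (-2.64 ± 0.45, adjusted p = 0.00143). Its WT libraries differed by more than 2-fold, its log2 fold change was -1.75 without WT 1, and its call was lost without Trim28 KO 1 (adjusted p = 0.128) or Trim28 KO 2 (0.0812). Of 7 keratan sulfate genes tested, Chst1, which sulfates galactose of keratan, alone was called (14.3%, against 17.4% of all genes tested). Chst1 fell from 24.5 and 13.7 to 6.44 and 10.7 CPM (-1.16 ± 0.32, adjusted p = 0.0390). Its log2 fold change was -0.66 without WT 1 (adjusted p = 0.0838) and -0.83 without Trim28 KO 1 (adjusted p = 0.215), and it was not called in either case.

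The core proteins that carry the chains moved both ways, with 5 of 22 tested higher and 5 lower (22.7% each, against 8.64% and 8.77% of all genes). Epyc, which encodes the leucine-rich proteoglycan epiphycan (-2.08 ± 0.22, adjusted p = 2.50e-07), and Tgfbr3, the part-time proteoglycan betaglycan (-1.18 ± 0.20, adjusted p = 1.72e-04), fell, and the heparan sulfate carriers Sdc3 (1.33 ± 0.22, adjusted p = 1.27e-04) and Agrn (0.97 ± 0.21, adjusted p = 0.00167) rose. The other called genes, named after their values were seen, were Sdc4 (0.83), Sdc1 (0.73) and Cspg4 (0.66) among the risen and Col18a1 (-0.86), Sdc2 (-0.78) and Gpc3 (-0.75) among the fallen. Each of these 6 lost its call without at least 1 library: Sdc4 without WT 1 or Trim28 KO 2, Cspg4 without WT 2 or Trim28 KO 2, Sdc1 without any but WT 1, Col18a1 without WT 1 or Trim28 KO 1, Gpc3 without WT 2 or Trim28 KO 1, and Sdc2 without Trim28 KO 1. Aggrecan, the main chondroitin sulfate carrier of cartilage, stood at 2735 and 2817 CPM in WT and at 3563 and 4585 CPM in Trim28 KO and did not pass the test (Acan, 0.55 ± 0.24, adjusted p = 0.122).

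Of 18 breakdown genes tested, 7 rose (38.9%, against 8.64% of all genes) and 1 fell (5.56%, against 8.77%). The risen genes with the smallest p-values encode lysosomal enzymes, Gusb (1.31 ± 0.20, adjusted p = 3.83e-05), Hexa (1.22 ± 0.20, adjusted p = 1.28e-04) and Naglu (1.24 ± 0.22, adjusted p = 3.16e-04). Hexa went from 124 and 129 CPM in WT to 314 and 274 CPM in Trim28 KO, and Gusb from 61.1 and 65.1 to 162 and 149.7 CPM. Macrophage markers, also higher in Trim28 KO, summed to 437 CPM in Trim28 KO 1 and 261 CPM in Trim28 KO 2, and their part in these rises was not tested. Cemip, a hyaluronan-degrading protein named after its value was seen, was the gene that fell, from 46.7 and 52.7 to 4.48 and 11.7 CPM (-2.61 ± 0.47, adjusted p = 0.0240). Its log2 fold change was -2.07 without Trim28 KO 1 and -3.46 without Trim28 KO 2.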

How the data were processed

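RNA of 2 WT and 2 Trim28 KO samples was measured by RNA-seq. The authors deposited raw counts per gene name. The file headers record featureCounts 1.6.4 in paired-end mode over exons of GENCODE M23 (mm10), and no setting for strand, multi-mapping or overlapping genes was given there. The submitters' processing notes name Subread 1.6.4 and also edgeR. Which aligner was used is not given in the sources used here.

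Genes were kept by filterByExpr (16639 of 55228), scaled by TMM, and compared with edgeR 4.0.16 (quasi-likelihood, robust, no covariate, R 4.3.3). SE is the log2 fold change over the square root of F. Members, gene lists and the rule for named genes (all members, those called and the most abundant per role in full, up to 4 called genes per other list by p) were chosen with earlier results of these data known. Counts were 18616896 to 20082123 per library, and 1 count equals 0.0502 to 0.0531 CPM. Both replicate pairs differed beyond sampling noise (chi-square per degree of freedom 30.6 for WT and 24.6 for Trim28 KO). Positions are from GENCODE M21 (GRCm38, the mm10 assembly). The steps were run on simulated counts with known changes. Where each gene was given its own dispersion, false calls exceeded the share that the adjusted p threshold aims at. The alternatives were other scaling factors, no filter on low counts or one at 5 CPM in at least 2 libraries, DESeq2 1.42.0, a replicate block and leaving out each library. A crossed replicate block and offsets for gene length or GC content were added after seeing the data.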

Additional observations from a re-analysis of the deposited data

How the results depend on the processing

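Apart from Has3 and Chst13, each of the 43 genes had at least 56 counts in every library. Counting error limits those 2 genes most. It also bears on Has1 (56 to 124 counts, SE 0.29), which was called, and Hs6st2 (67 to 109 counts, SE 0.28). With each library left out in turn, 6 to 15 of the 43 were called (15 with all), 5 to 10 higher (9) and 0 to 5 lower (6), and 8 to 15 other pathway genes higher (14) and 3 to 8 lower (8). The count of the 43 moved beyond 1.5 times without WT 2 (9, 3 of them lower) and without Trim28 KO 1 (6, with 0 lower), that of the higher without Trim28 KO 2 (5). The other settings gave 14 to 17 of the 43, and total counts alone shifted the median of all genes by 0.07. Where a replicate was left out of 2, the lone library was taken to vary like those of the other genotype.

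Direction changed only among genes that did not pass the test. With a library left out, log2 fold changes ranged from -0.091 to 0.39 for Xylt2, -0.25 to 0.24 for B3galt6, -0.066 to 0.47 for Fam20b, -0.14 to 0.28 for Chsy1, -0.047 to 0.36 for Chst12, -0.047 to 0.32 for Chst14, -0.15 to 0.27 for Extl1, -0.20 to 0.14 for Extl3, -0.24 to 0.27 for Ndst1, -0.075 to 0.23 for Hs2st1, -0.33 to 0.34 for Hs6st1 and -0.53 to 0.092 for Slc26a2. With total counts alone B3galt6 was at 0.028, Extl3 at 0.0068 and Hs6st1 at 0.017, and with GC offsets Ndst1 was at -0.027.

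The genotypes share replicate numbers, but the labels do not say that a number marks anything shared, and deviations of like-numbered libraries correlated at -0.107. With a replicate block 17 of the 43 were called (10 higher, 7 lower), adding B3gat3 and Chst15, and Chst1 was not called (adjusted p = 0.211). With the numbers crossed, 16 were called.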
